A study of Mus musculus with 60 samples.

Results

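The kidney transcriptome of cKOt mice in the early night was compared with that in the early day. The comparison was defined by the labels of the samples, which give cKO as the genotype and either ZT04 or ZT16 as the zeitgeber time, counted in hours from the time the light switches on. It holds 10 of the 60 RNA-Seq samples of the series, 5 mice at ZT04 and 5 other mice at ZT16, and no deposited sample of either group was left out. The cKOt mice carried Bmal1 lox/lox, Pax8-rtTA, and LC1 Cre on the C57BL/6J background. Both groups were males, were 8 weeks old when they received doxycycline (2 mg/ml, with 20 mg/ml sucrose) in the drinking water for 2 weeks, and lived under 12 hours of light and 12 hours of darkness with chow always available. Kidneys were collected a month after doxycycline had ended. The 5 control mice at each of these time points, Bmal1 lox/lox littermates under the same treatment, serve only to show where the cKOt kidneys differ. Because Pax8-rtTA directs Cre to the renal tubule of the kidney, cells of the glomeruli, vessels, and interstitium in the same sample are not targets of the deletion.

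The tissue is labeled as renal tubule, whereas the methods of the study describe frozen pieces of kidney from perfused animals. Transcripts of tubule segments were abundant in the 10 libraries: the sum of 8 proximal tubule markers (Lrp2, Cubn, Slc34a1, and others) lay between 15484 and 18307 CPM (counts on a transcript divided by the effective library size and scaled as in edgeR). However, 5 podocyte markers summed to 328 to 382 CPM and 6 endothelial markers to 362 to 447 CPM, so transcripts of cells outside the tubule were also counted. In such bulk samples, fewer cells of one type and less RNA per cell cannot be told apart.

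BMAL1, encoded by Arntl, pairs with CLOCK or NPAS2 and activates E-box genes such as Per, Cry, and Nr1d1 (REV-ERBα), whose products then repress this activation. When the loop is broken in a single tissue, transcripts of that tissue can still differ between day and night, because body temperature, hormones, feeding, and nerves continue to cycle with the animal. Mice eat and move mainly at night, and transcripts of heat shock proteins and of chaperones of the endoplasmic reticulum (ER) are well-known examples of those that follow such signals. The question of this comparison is which transcripts of the kidney still differ between these times when the tubular clock has been disabled, as far as the design states it.

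Of 15546 retained transcripts, 1602 (10.3%) passed an adjusted p of 0.05 in the quasi-likelihood test of edgeR between ZT16 and ZT04. Of these, 859 (5.53% of those tested) were higher and 743 (4.78%) were lower at ZT16. At an unadjusted p under 0.05, 3699 transcripts passed. Most differences were small. The median size was 0.31 on the log2 scale over the 1602 transcripts, and 33 of the higher and 43 of the lower ones reached a 2-fold difference. The ranges of the 5 night and 5 day mice were separate for 412 of the 859 higher and 397 of the 743 lower transcripts, against 10.7% of all those tested. Among the gene lists examined, which cover a small part of these transcripts, chaperones of the ER and of the cytosol had the highest numbers of higher members.

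Several libraries stood apart within their groups. On the first principal component of the 1000 most variable transcripts (26.3% of the variance), day mice lay between -22.9 and -4.46 and night mice between -2.07 and 17.5, with replicate 5 of ZT04 at the lowest and replicate 2 of ZT16 at the day side of its group. In replicate 5 of ZT04, the 10 most abundant transcripts took 15.7% of the counts, against 13.2% to 13.9% in the other day mice. The first factor of unwanted variation estimated by RUVs was 3.24 in this library, and its mean was 0.713 in day mice and -0.735 in night mice. In controls, the corresponding means were -0.614 and -0.553. Without the RUVs factors, 2380 transcripts passed, of which 1117 were among the 1602, and 1209 of them were lower at ZT16. Without replicate 5 of ZT04, 1480 transcripts passed, with 1369 in common. On the second component (18.3%), replicates 1 and 2 of ZT16 lay at -19.9 and -17.7 and the other 3 night mice between 3.74 and 10.9, which is considered again at single genes.

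The deleted gene did not differ between the times. Arntl was at 20.2, 21.3, 19.8, 20.7, and 17.4 CPM in the day mice (replicates 1 to 5) and at 20.3, 20.2, 21.6, 20.9, and 19.6 CPM in the night mice. The log2 fold change was 0.12 ± 0.21 (SE, adjusted p = 0.787, edgeR). In control kidneys, the same transcript went from 10.3 CPM at ZT04 to 21.5 CPM at ZT16, and from 2.73 CPM at ZT08 to 48.4 CPM at ZT0, whereas the 6 means of cKOt kidneys stayed between 17.4 and 24.4 CPM. The counts cover the whole gene, so that transcripts without the floxed part and those of cells outside the tubule are included, and a similar level in both genotypes at ZT16 is no measure of intact Arntl.

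Among the other 17 genes of the core clock loop, 5 differed between night and day in cKOt kidneys (against 10.3% of all transcripts), 3 of them higher and 2 lower at ZT16. In control kidneys, 13 of all 18 differed (8 higher and 5 lower, against 12.9% of all transcripts). The largest increase was that of Per2, a repressor of the loop that also responds to temperature and hormones. Per2 was at 36.7, 38.2, 32.2, 30.9, and 30.4 CPM in the day mice and at 101, 97.1, 69.5, 71.6, and 70.0 CPM in the night mice. All night values exceeded all day values, with a log2 fold change of 1.20 ± 0.17 (adjusted p = 1.3e-06). Within the 3 batches that hold mice of both times, the difference lay between 0.95 and 1.66 on the log2 scale. In control kidneys, Per2 rose by 1.74 ± 0.16, and the difference between genotypes was -0.54 ± 0.23 (adjusted p = 0.422).

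Per3, another member of the Per family, increased from a range of 8.37 to 11.0 CPM to a range of 15.0 to 21.2 CPM in cKOt kidneys. Its log2 fold change of 0.91 ± 0.17 (adjusted p = 0.000222) stood against -0.03 ± 0.14 in controls, where the level was 43.2 CPM at ZT04 and 42.3 CPM at ZT16. This difference between genotypes passed the test (0.93 ± 0.22, adjusted p = 0.0423). The means over the day show the course behind both numbers. In cKOt kidneys, Per3 was lowest at ZT0 (9.15 CPM) and highest at ZT12 (24.3 CPM), and in controls it was lowest at ZT20 (14.6 CPM) and highest at ZT12 (74.2 CPM).

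Nr1d1, the repressor of Arntl, fell the most among the named transcripts. It was at 14.7, 8.47, 13.4, 15.3, and 8.28 CPM by day and at 3.58, 1.66, 5.23, 6.44, and 5.11 CPM by night (log2 fold change -1.71 ± 0.27, adjusted p = 1.06e-05). Its groups did not overlap, although the lowest library holds only 31 reads of it. Controls fell by 3.51, from 74.5 to 6.54 CPM, which was a larger drop (difference 1.79 ± 0.36, adjusted p = 0.00561). Cry1, a repressor of the late night, rose from 27.0 to 29.8 CPM at ZT04 to 32.1 to 37.1 CPM at ZT16, with a log2 fold change of 0.34 ± 0.10 (adjusted p = 0.0259). In controls it increased from 2.75 to 22.3 CPM (3.01 ± 0.13), and the difference of -2.67 ± 0.17 had an adjusted p of 7.16e-18. The call of Cry1 within cKOt kidneys was lost without replicate 2 of ZT16 (adjusted p = 0.068) and under 6 other settings, with a fold change between 0.31 and 0.35.

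The other 13 members of the loop, Arntl included, did not pass the test in cKOt kidneys. For Cry2, the log2 fold change was -0.01 ± 0.07 in cKOt and 0.49 in control kidneys (difference -0.50, adjusted p = 0.00212). Per1 ranged from 6.49 to 15.3 CPM by day and from 13.4 to 26.1 CPM by night (0.50 ± 0.24, adjusted p = 0.175).

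The transcription factors Dbp, Tef, and Hlf and their repressor Nfil3 carry the clock to other genes through D-boxes. None of them passed in cKOt kidneys, against 10.3% of all transcripts, whereas all 4 did in controls, against 12.9%. For Tef and Hlf, the log2 fold changes were -0.03 ± 0.10 and 0.22 ± 0.08 in cKOt kidneys and -0.26 and 0.35 in controls. Their differences between genotypes did not pass (edgeR, adjusted p = 0.59 and 0.76). Dbp was at 3.30 to 4.67 CPM by day and 2.36 to 5.17 CPM by night. Controls fell from 47.2 to 9.76 CPM. The difference between genotypes was 1.98 ± 0.31 (adjusted p = 0.000197). At ZT08, however, the mean of Dbp was 14.9 CPM in cKOt kidneys, so that similar values at ZT04 and ZT16 do not mean a flat course. Nfil3 was at 17.9, 16.3, 18.7, 17.2, and 17.2 CPM by day and at 32.4, 29.2, 20.8, 17.3, and 14.9 CPM by night. Its 2 highest values came from replicates 1 and 2 of ZT16, the mice that stood apart on the second component.

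**Figure D1:**
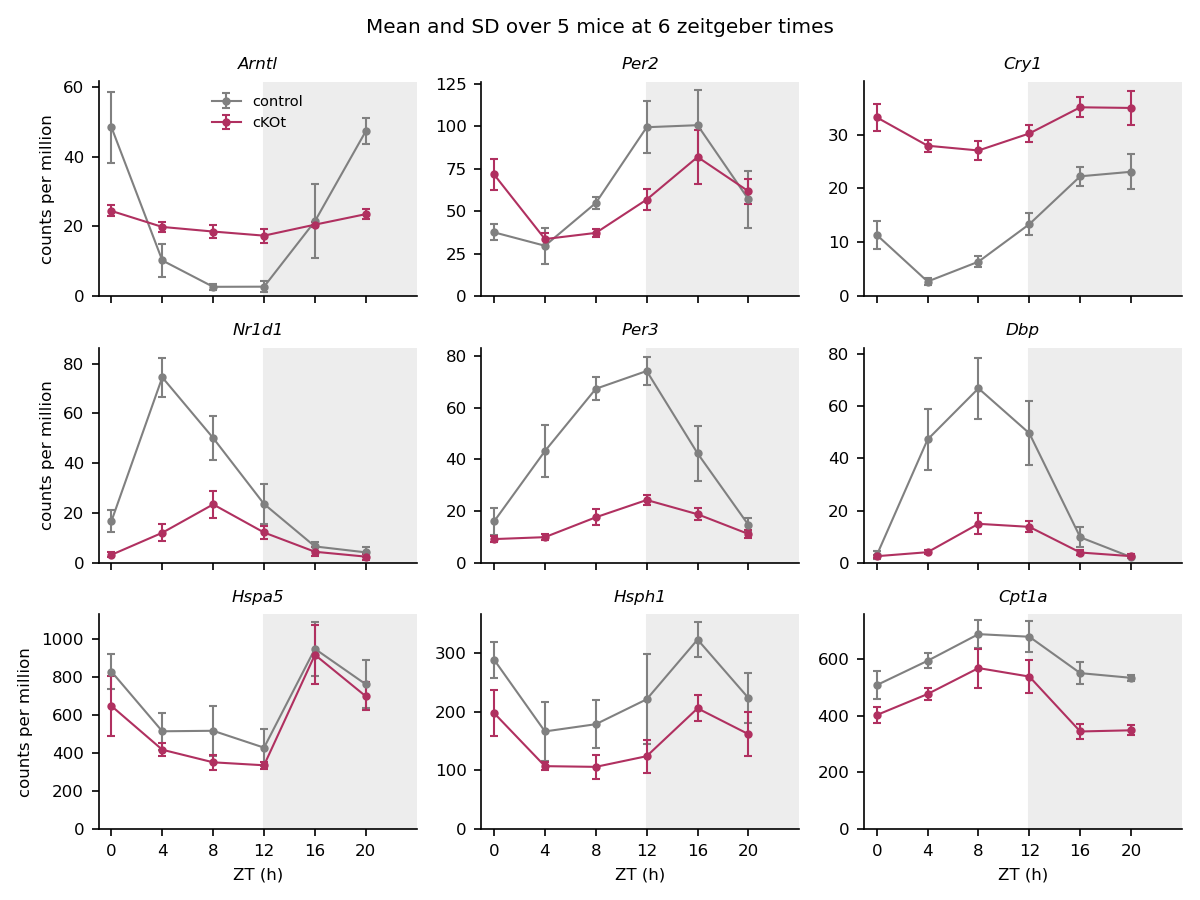
Mean CPM of 9 transcripts at 6 zeitgeber times (hours) in control (gray) and cKOt (red) kidneys, with bars for the SD over 5 mice and shading for the dark phase. In cKOt kidneys Arntl stayed between 17.4 and 24.4 CPM and Nr1d1 peaked at 23.4 CPM at ZT08, whereas Hspa5 reached its highest mean at ZT16 in both genotypes (918 CPM in cKOt).

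Chaperones and enzymes that fold proteins in the ER were the list with the highest share of increases. Of 25 members, 21 were higher at ZT16 and none was lower, against 5.53% of all transcripts that were higher, and all 25 had a positive log2 fold change (median 0.45, compared with 0.0038 over all transcripts). Control kidneys showed 22 higher and none lower with a median of 0.44, and no member differed between genotypes. The summed level of the list lay between 4008 and 4419 CPM in the day mice and between 4975 and 6636 CPM in the night mice. The promoters of 4 members are shown, 3 of which hold the ER stress element and 1 of which does not, because genes of the unfolded protein response are known to carry this element (CCAAT, any 9 bases, and CCACG, searched on both strands), which binds NF-Y and ATF6. Each line holds the 250 bases before the start of the gene from RefSeq (GRCm38.p6), on the strand of the gene, with the fixed letters of the element in capitals on either strand.
Hspa5, chr2:34771840-34772089, plus strand: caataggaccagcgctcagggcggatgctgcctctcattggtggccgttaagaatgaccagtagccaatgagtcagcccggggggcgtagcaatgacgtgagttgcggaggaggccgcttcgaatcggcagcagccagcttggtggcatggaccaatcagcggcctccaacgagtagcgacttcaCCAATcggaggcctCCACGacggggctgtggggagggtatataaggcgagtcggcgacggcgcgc
Creld2, chr15:88819396-88819645, plus strand: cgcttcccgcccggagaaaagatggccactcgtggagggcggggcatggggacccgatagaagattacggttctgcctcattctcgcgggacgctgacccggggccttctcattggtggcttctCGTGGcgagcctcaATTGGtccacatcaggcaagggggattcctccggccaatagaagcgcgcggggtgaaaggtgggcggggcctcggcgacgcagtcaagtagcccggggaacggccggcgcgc
Hsp90b1, chr10:86705445-86705694, minus strand: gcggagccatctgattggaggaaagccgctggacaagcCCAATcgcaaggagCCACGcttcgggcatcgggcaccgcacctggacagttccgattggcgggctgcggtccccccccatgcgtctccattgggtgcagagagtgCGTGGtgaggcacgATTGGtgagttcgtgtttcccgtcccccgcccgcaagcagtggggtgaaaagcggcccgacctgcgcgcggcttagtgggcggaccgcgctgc
Sdf2l1, chr16:17132384-17132633, minus strand: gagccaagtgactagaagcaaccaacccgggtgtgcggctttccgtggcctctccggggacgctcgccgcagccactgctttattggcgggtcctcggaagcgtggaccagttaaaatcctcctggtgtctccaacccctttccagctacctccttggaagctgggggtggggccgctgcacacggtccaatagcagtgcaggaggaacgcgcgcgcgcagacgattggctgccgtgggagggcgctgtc
The element begins 65 bases before the start of Hspa5, 126 bases before that of Creld2, and 212 and 107 bases before that of Hsp90b1. The window of Sdf2l1 does not hold these exact letters. In windows of 300 bases, 0.137% of the 27025 genes with a promoter sequence held the element, as did 9 of the 21 genes of the ER list that have a sequence. Over all tested genes, 20 held it, of which 9 were higher and none lower at ZT16 in cKOt kidneys. All of these but 1 are members of the list, and the exception is Alg12, a mannosyltransferase of the ER (log2 fold change 0.45 ± 0.08, adjusted p = 0.000109). These matches describe the letters of the windows and were not tested as binding sites.

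Hspa5 encodes BiP, the Hsp70 chaperone that receives nascent chains in the ER lumen. Its level was 424, 451, 369, 443, and 404 CPM in the day mice and 905, 1112, 1000.4, 691, and 882 CPM in the night mice. The lowest night value exceeded the highest day value by far, and the log2 fold change was 1.21 ± 0.15 (adjusted p = 2.5e-07). Within the 3 shared batches it lay between 0.70 and 1.46. Controls rose from 515 to 949 CPM (0.88 ± 0.14). The difference of 0.33 ± 0.21 between genotypes did not pass (adjusted p = 0.666).

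Sdf2l1, a partner of ER Hsp40 proteins, had the largest change of the members with a mean of at least 2 CPM. It was at 3.55, 4.91, 3.80, 5.25, and 3.02 CPM by day and at 15.0, 19.4, 17.8, 9.74, and 15.8 CPM by night, a log2 fold change of 1.86 ± 0.23 (adjusted p = 2.04e-07). Creld2, a secreted factor induced by ER stress, went from 17.6, 21.0, 16.6, 19.2, and 12.8 CPM to 53.3, 70.3, 54.1, 35.7, and 50.0 CPM (1.50 ± 0.19, adjusted p = 2.2e-07). In Sdf2l1, Creld2, and Hspa5 alike, replicate 4 was the lowest of the night mice and replicate 2 the highest. Manf, also secreted upon ER stress, increased from 30.0 to 34.5 CPM to 68.5 to 93.3 CPM (1.42 ± 0.17), and Hyou1, the nucleotide exchange factor of BiP, from 64.9 to 96.1 CPM to 148 to 248 CPM (1.10 ± 0.13). Hsp90b1 (GRP94) showed a smaller increase (0.66 ± 0.11), as did Xbp1, a transcription factor of the unfolded protein response (0.56 ± 0.15, adjusted p = 0.0114). Derl3, which helps to export misfolded proteins, had a log2 fold change of 2.15 ± 0.44 but rested on 4 to 71 reads per library. Calr, Sec61b, Sec61g, and Ssr1 did not pass, with log2 fold changes of 0.23, 0.13, 0.45, and 0.12. The count of 21 members fell to 16 without the RUVs factors and was 21 without replicate 5 of ZT04.

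Of 12 members of the amino acid stress list (Atf4, Ddit3, Trib3, Asns, and others that the kinase PERK and ATF4 control), none passed in cKOt kidneys, where 10.3% of all transcripts did. Their median log2 fold change was -0.11, but 0.13 without the RUVs factors, where 2 were higher and 1 was lower.

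Cytosolic heat shock proteins were the other large group. Of 23 members, 15 were higher and none was lower at ZT16, against 5.53% of all transcripts that were higher. Their median log2 fold change was 0.53. Controls showed 18 higher and none lower with a median of 0.51, and no member differed between genotypes. Hsph1 (Hsp110) was at 108, 96.6, 114, 104, and 113 CPM by day and at 209, 230.4, 222, 190.5, and 177 CPM by night, without overlap (1.05 ± 0.18, adjusted p = 5.64e-05). The constitutive Hsp70, Hspa8, was among the most abundant members and rose from 776, 841, 821, 774, and 828 CPM to 1608, 1438, 1566, 1200.3, and 1017 CPM (0.81 ± 0.14, adjusted p = 9.01e-05). Replicates 4 and 5 of ZT16 were the lowest of the night mice for both transcripts. The small heat shock protein Hspb1 was at 0.839 to 3.05 CPM by day and 4.56 to 6.67 CPM by night (1.11 ± 0.22).

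Cochaperones of Hsp90 moved in the same direction, including Chordc1 (0.76 ± 0.10), although its ranges overlapped (53.6 to 81.3 against 80.1 to 106 CPM). Hsp90aa1, a cytosolic Hsp90, increased from 147 to 170.5 CPM to 231 to 269 CPM. Dnajb1 ranged from 24.9 to 27.4 CPM and from 28.1 to 50.0 CPM, but with an adjusted p of 0.0751 it did not pass. The inducible Hsp70 genes Hspa1a and Hspa1b, near-identical copies between which reads may be split, did not pass either (log2 fold changes 0.66 and 0.91). The mitochondrial chaperonin Hspd1 was at 0.06 (adjusted p = 0.524). Over all alternative settings, 13 to 17 of the 23 members were higher and none was lower.

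Cirbp and Rbm3, RNA-binding proteins that cooling induces, went in opposite directions. Cirbp had a log2 fold change of -0.69 ± 0.16 (adjusted p = 0.00297), but its values of 21.2 to 38.8 CPM by day and 15.0 to 29.9 CPM by night overlapped, and without the RUVs factors it was -0.40 (adjusted p = 0.143). Rbm3 was at 43.2, 43.3, 49.8, 45.7, and 46.6 CPM by day and at 82.6, 69.9, 67.0, 50.2, and 49.7 CPM by night (0.46 ± 0.11, adjusted p = 0.00403). Replicates 4 and 5 were again the lowest of the night mice.

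**Figure D2:**
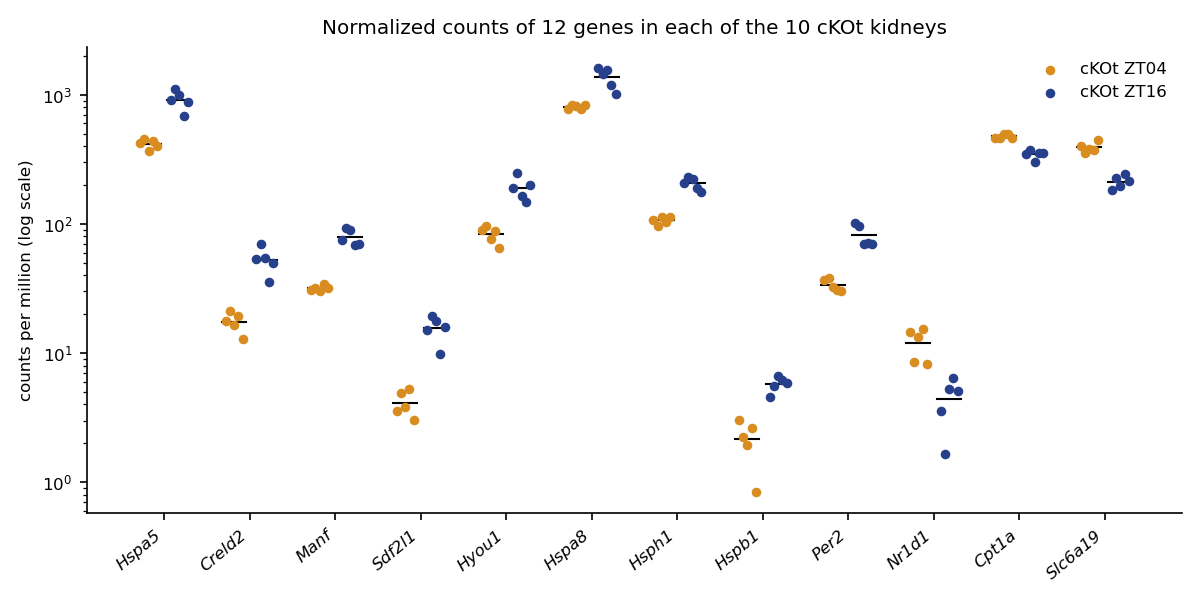
CPM on a log axis of 12 transcripts in each of the 5 cKOt mice at ZT04 (orange) and the 5 at ZT16 (blue), with black lines at the group means. Each point is 1 kidney, and for all 12 transcripts the ranges of the groups are separate, as for Hspa5 (369 to 451 CPM by day and 691 to 1112 CPM by night).

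Other transcripts with the largest increases had no common role. Cyp26b1, an enzyme that degrades retinoic acid, was at 8.28, 8.32, 9.39, 6.31, and 8.33 CPM by day and at 18.3, 27.9, 53.7, 15.3, and 34.6 CPM by night. The night values were widely spread, and the log2 fold change of 1.92 ± 0.56 (adjusted p = 0.0186) did not pass without replicate 3 of ZT16 (adjusted p = 0.0582). In controls, Cyp26b1 had a log2 fold change of 0.51 (adjusted p = 0.605), and the difference between genotypes did not pass (adjusted p = 0.588). Slc16a14, a member of the monocarboxylate transporter family, increased from 44.1 to 70.8 CPM to 91.6 to 164 CPM (1.26 ± 0.22). Gadd45g, a stress-induced gene, went from 1.90 to 6.40 CPM to 8.85 to 23.8 CPM (1.22 ± 0.41, adjusted p = 0.0471). It lost its call without replicate 1 of ZT16 (adjusted p = 0.176) and under 6 other settings. Of the 24 immediate early genes to which it belongs, no other passed, against 10.3% of all transcripts that did. However, 20 of the 24 had a positive log2 fold change. Over all settings, 0 to 5 of them were higher, and their median lay between 0.13 and 0.63. Insc and Adamtsl5 rose by 1.21 and 1.17 from levels of 2.10 and 1.14 CPM.

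Processing factors of ribosomal RNA rose more often than transcripts in general. Of 32 members, 10 were higher and none was lower, against 5.53% of all transcripts that were higher. Controls showed 11 higher and 1 lower. The changes were small. Bysl, needed for the small ribosomal subunit, had the largest (from 7.94 to 12.4 CPM to 15.4 to 17.6 CPM, 0.46 ± 0.08, adjusted p = 5.59e-05), followed by Nop2 and Nolc1 (0.33 each) and Heatr1 (0.30). Only 3 members passed when the 10 samples were fitted alone.

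In the tubular transport of salt and water, 6 of 32 members were higher and none was lower, against 5.53% of all transcripts that were higher. Markers of collecting duct principal cells, with Avpr2 in both lists, summed to 159 to 262 CPM by day and 269.6 to 317 CPM by night, and their part in this count was not tested. Scnn1a, the alpha subunit of the epithelial sodium channel, was at 78.7, 71.9, 58.5, 59.7, and 42.0 CPM by day and at 96.8, 97.99, 100.3, 99.5, and 99.7 CPM by night. The night mice lay close together, and the log2 fold change was 0.49 ± 0.09 (adjusted p = 7.63e-05). The beta and gamma subunits did not pass (0.08 and 0.02). Kcnj10, a basolateral potassium channel of the distal tubule, increased from 73.9 to 88.9 CPM to 102 to 119 CPM (0.38 ± 0.07), and Kcnj1 (ROMK), Stk39 (SPAK), Aqp1, and Avpr2, the vasopressin receptor, were higher by 0.33, 0.29, 0.23, and 0.28. The main sodium carriers Slc9a3, Slc12a1, and Slc12a3 did not pass (0.12, 0.15, and 0.09). In controls, 5 members were higher and 3 lower.

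Tsc22d3 (GILZ), a glucocorticoid target, was at 44.1 to 57.8 CPM by day and 75.9 to 85.9 CPM by night (0.65 ± 0.14, adjusted p = 0.00158). Controls increased from 35.5 to 91.4 CPM (1.36 ± 0.14), and the difference of -0.71 ± 0.20 did not pass (adjusted p = 0.116). Besides Sult1a1 (0.64 ± 0.11), none of the other 17 tested glucocorticoid-responsive transcripts passed in cKOt kidneys, Fkbp5 and Sgk1 among them, so that the share of the list was close to the 10.3% of all transcripts. Without the RUVs factors, 5 of the 19 were higher, with a median of 0.40 in place of 0.22. In heme metabolism, Alas1, the first enzyme of heme synthesis, increased from 62.8 to 102 CPM to 134 to 189 CPM (0.81 ± 0.14, adjusted p = 5.57e-05), and Hmox1, which degrades heme, from 11.0 to 15.2 CPM to 17.2 to 43.8 CPM (0.94 ± 0.20, adjusted p = 0.00111).

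Transcripts of lipid synthesis did not share 1 direction. Of 14 members of fatty acid synthesis, 3 were higher and 1 was lower, against 5.53% and 4.78% of all transcripts. The higher ones were Scd2, a desaturase (99.0 to 124 against 161 to 178 CPM, 0.55 ± 0.10), Srebf1, the transcription factor of lipogenesis (0.50 ± 0.14), and Acly, which supplies acetyl-CoA (0.34 ± 0.06). Gpam, which starts glycerolipid synthesis, was lower (from 210.4 to 247 CPM to 129 to 169 CPM, -0.56 ± 0.09). Of 24 members of cholesterol synthesis and uptake, only Nsdhl passed (-0.33 ± 0.08), against 10.3% of all transcripts.

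Of 26 targets of fasting and PPARα, 5 were lower (Angptl4, Pdk4, Plin5, Cpt1a, and Txnip) and none was higher, against 4.78% of all transcripts that were lower. The median of the list was -0.14, and 23 of the 26 had a negative log2 fold change. Cpt1a, which commits fatty acids to mitochondrial oxidation, was at 463, 463, 499, 499, and 461 CPM by day and at 345, 372, 300.2, 353, and 354 CPM by night. These groups were clearly separate (-0.50 ± 0.07, adjusted p = 3.2e-06). Controls went from 595 to 551 CPM (-0.11 ± 0.07, adjusted p = 0.318), and the difference of -0.39 ± 0.10 did not pass (adjusted p = 0.0662).

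Angptl4, a secreted inhibitor of lipoprotein lipase, and Pdk4, which spares glucose by blocking pyruvate dehydrogenase, were less certain. Angptl4 was at 7.26, 15.5, 10.3, 18.8, and 11.4 CPM by day and at 3.27, 2.25, 7.47, 8.36, and 6.76 CPM by night. The lowest values came again from replicates 1 and 2 of ZT16. The log2 fold change was -1.51 ± 0.46 (adjusted p = 0.0248), but within the shared batches it ran from -2.11 to 0.19. Pdk4 was at 25.7, 45.0, 34.3, 51.4, and 49.4 CPM by day and at 15.4, 17.5, 17.5, 27.3, and 17.7 CPM by night (-1.02 ± 0.33, adjusted p = 0.0366), with 1 night mouse above the lowest day mouse and a range of -1.47 to 0.08 within batches. Plin5, a coat protein of lipid droplets, had means of 1.65 and 1.04 CPM (SE of the log2 fold change 0.32, adjusted p = 0.0313). Each of these 3 calls was lost when replicate 4 of ZT04 was left out (adjusted p = 0.0882, 0.123, and 0.142). In controls, the 3 transcripts had positive log2 fold changes (0.38, 0.71, and 0.54) that did not pass, and their differences between genotypes did not pass either (adjusted p = 0.187, 0.0795, and 0.0795). Adipocyte markers, which some of these transcripts share, summed to 0.559 to 4.00 CPM by day and 1.39 to 8.73 CPM by night. None of the 5 markers passed, and their part in the result was not tested.

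Of 25 amino acid and organic ion transporters, 4 were lower at night and none was higher, against 4.78% of all transcripts that were lower. Over the alternative settings, 1 to 5 of them were lower. Slc6a19, the luminal carrier of neutral amino acids, was at 404, 353, 381, 373, and 447 CPM by day and at 182, 228, 196, 244, and 215 CPM by night. Without overlap, it had a log2 fold change of -0.87 ± 0.12 (adjusted p = 7.46e-07), which compares with -1.04 ± 0.11 in controls. Slc6a6, the taurine carrier, Slc5a8, a carrier of lactate and other monocarboxylates, and Slc1a1, the glutamate carrier, were lower by smaller amounts (-0.28, -0.24, and -0.19). Their calls were lost under 5, 9, and 8 of the 21 alternative settings. Slc2a2 (GLUT2) fell from 206 to 283 CPM to 146 to 198 CPM (-0.29 ± 0.09). By contrast, Pck1, the control point of gluconeogenesis, had a log2 fold change of 0.60 ± 0.19 (adjusted p = 0.0364), with ranges that overlapped (1509 to 3301 and 2569 to 3980.3 CPM). The call of Pck1 was lost under 10 of the alternative settings.

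In autophagy, 5 of 21 members were lower and 1 was higher, against 4.78% and 5.53% of all transcripts. Wipi1, which binds the forming autophagosome, fell from 44.2 to 54.2 CPM to 27.0 to 33.6 CPM (-0.73 ± 0.09, adjusted p = 1.3e-07), and Gabarapl1 from 639.9 to 741 CPM to 463 to 535 CPM (-0.44 ± 0.07, adjusted p = 1.56e-05). Atg14 was also lower (-0.28 ± 0.08), whereas Tfeb, the transcription factor of lysosomal genes, was higher (0.41 ± 0.10). Controls showed 3 lower and 1 higher. Cyp24a1, which inactivates vitamin D, was at 79.1, 110.4, 93.3, 97.95, and 62.1 CPM by day and at 9.13, 17.4, 52.7, 75.9, and 34.0 CPM by night (-1.61 ± 0.50, adjusted p = 0.0277), and its call was lost without replicate 1 of ZT16 (adjusted p = 0.101). Of 25 cytochrome P450 and xenobiotic enzymes, 2 were higher and 2 lower. Of 18 genes of gluconeogenesis and insulin response, 1 was higher (Pck1) and 1 lower (Slc2a2), and of 23 cell cycle genes only Mcm7, a helicase subunit of DNA replication, was lower (-0.36, adjusted p = 0.0127).

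Besides Nr1d1 and Slc6a19, the largest decreases included Itga8, an integrin of mesenchymal cells (from 21.2 to 35.0 CPM to 10.5 to 18.3 CPM, -0.89 ± 0.15), Dgkg, a diacylglycerol kinase (-0.98 ± 0.17), St6galnac3, a sialyltransferase (-1.08 ± 0.17), Il5ra, the receptor of interleukin 5 (-1.07 ± 0.19), and Neil2, a DNA glycosylase (-1.02 ± 0.20). Rnf212b, Blm, N4bp2l1, and Aplnr, the apelin receptor, were lower by 1.18, 0.98, 0.97, and 0.95 on the log2 scale. All of these also fell in control kidneys. Sgtb, a cochaperone, fell from 6.98 to 9.87 CPM to 3.97 to 5.60 CPM (-0.85 ± 0.15), compared with -0.25 ± 0.13 in controls, and the difference did not pass (adjusted p = 0.246).

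In the lists of mitochondria and NAD+, the shares that passed were close to the 10.3% of all transcripts, except for complex II. Of 36 subunits of respiratory complex I, 4 were higher (Ndufa6, Ndufa5, Ndufab1, and Ndufv2, by 0.17 to 0.24) and none was lower, but none of the 36 passed when the 10 samples were fitted alone, and the calls of Ndufa5, Ndufab1, and Ndufv2 were also lost without the RUVs factors in the fit of all samples. None of 8 transcripts of complex II passed, and of 17 of the tricarboxylic acid cycle, Idh3a (0.30 ± 0.05) and Pdhb (0.17 ± 0.05) were higher. In NAD+ metabolism, Acmsd (from 173 to 236 CPM to 109 to 159 CPM, -0.48 ± 0.15), Qprt (-0.19 ± 0.06), and Nadk2 (-0.17 ± 0.05) were lower among 25 members. Nampt did not pass in cKOt kidneys (0.02 ± 0.06) but was higher at night in controls (0.42 ± 0.05). This difference between genotypes passed in edgeR (-0.40 ± 0.08, adjusted p = 0.00747). Mean CPM of Nampt, not corrected by RUVs, were 165 by day and 147 by night in cKOt kidneys and 193 and 261 in controls. The value of Qprt depended on the RUVs factors, since its means were 55.2 CPM by day and 54.9 CPM by night. Its call was lost under 10 of the 21 alternative settings, and those of Acmsd and Pdhb under 7 each.

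**Figure D3:**
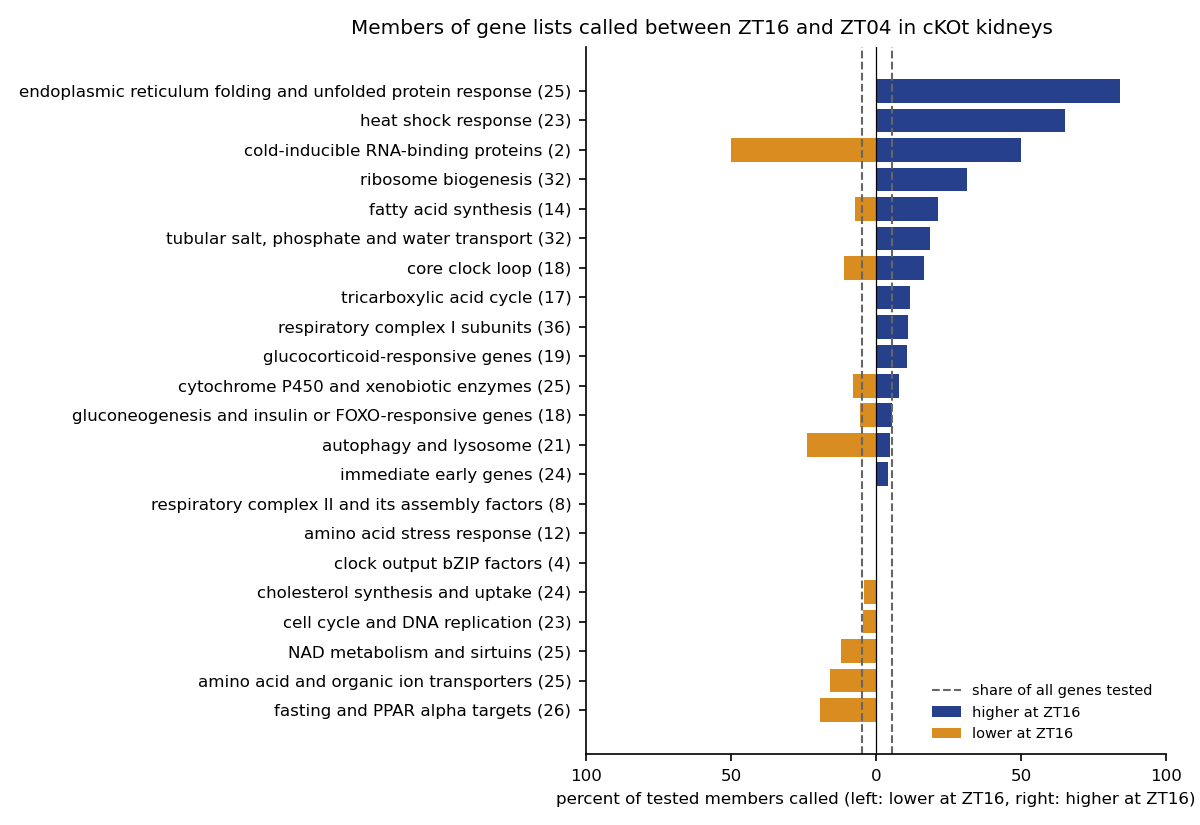
Percent of tested members of each gene list that were called between ZT16 and ZT04 in cKOt kidneys, with higher ones to the right in blue, lower ones to the left in orange, and the number of members in parentheses. Dashed lines mark the shares of all transcripts (5.53% higher and 4.78% lower), and 21 of 25 members of the ER list and 15 of 23 of the heat shock list were higher.

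Markers of cell types were examined in the same way, with 10.3% of all transcripts as the background. Of 8 proximal tubule markers only Slc5a12 passed (-0.39 ± 0.09), and none passed for the thick ascending limb, distal convoluted tubule, intercalated cell, fibroblast, macrophage, B cell, T cell, liver, red blood cell, adipocyte, or adrenal cortex. Fibroblast markers nevertheless split the night mice. They summed to 99.0 and 91.3 CPM in replicates 1 and 2 of ZT16 and to 184 to 211 CPM in the others. By day the sum was 132 to 172 CPM. Among the principal cell markers, which summed to 159 to 262 CPM by day and 269.6 to 317 CPM by night, Avpr2 passed. Podocyte markers were at 328 to 382 CPM by day and 335 to 370 CPM by night, and 1 of the 5 was lower at ZT16. Endothelial markers disagreed in direction, with Pecam1 and Cdh5 lower (-0.29 and -0.26) and Flt1 higher (0.31). Of the injury markers, Krt20 passed at a level of 0.122 CPM by day and 0.432 CPM by night. Their part in the other results was not tested.

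In kidneys of control mice, 2005 transcripts (12.9%) differed between the same times, 1057 higher (6.80%) and 948 lower (6.10%). This count depended on the RUVs factors: without them, 518 were higher and 486 lower in controls, fewer than the 2380 that passed in cKOt kidneys, so that the order of the genotypes turned. The overlaps that follow were counted with the factors. Of the 2005, 747 also passed in the same direction in cKOt kidneys, which is 46.6% of the cKOt and 37.3% of the control list, and 2 passed in opposite directions. Since passing in one genotype and not in the other does not show a difference, the difference itself was tested. It passed for 43 transcripts (0.277%), 12 of them with a 2-fold difference or more, and 1452 had an unadjusted p under 0.05. The number was 27 without cKOt ZT16 replicate 3, 77 with batch in place of the RUVs factors, and 86 by the DESeq2 Wald test. Of the 43, 30 differed between times only in controls, 9 only in cKOt kidneys, and 4 in both. Besides clock genes, the 6 largest at a mean of at least 2 CPM included Lingo4 (2.29 to 3.94 CPM by day and 2.25 to 3.89 CPM by night in cKOt kidneys, and 0.555 to 1.72 CPM in control means) with a difference of -2.01 ± 0.32 (adjusted p = 0.000197).

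Of the 9 cKOt-only transcripts, Per3 is described above, and Gm42047 and Slc25a30 are described here after their values were seen. The others were Klhdc7a, Chrna4, Rab11a, and Eps8l2, with positive log2 fold changes (0.56, 0.39, 0.20, and 0.18), and Tmem229a and Atmin, which were lower (-0.36 and -0.24). The value of Rab11a depended on the RUVs factors, since its means were 76.8 CPM by day and 76.6 CPM by night. Within the shared batches its difference ran from -0.29 to 0.04. Gm42047, a long noncoding RNA, was at 131, 63.9, 86.8, 88.2, and 37.7 CPM by day and at 28.9, 19.0, 20.6, 31.9, and 23.7 CPM by night (-1.70 ± 0.30, adjusted p = 9.01e-05), whereas its control means were 54.9 and 58.7 CPM (difference -1.79 ± 0.41, adjusted p = 0.0329). Slc25a30, a mitochondrial carrier, fell from 206 to 259 CPM to 143 to 185 CPM in cKOt kidneys (-0.49 ± 0.13) and had a log2 fold change of 0.31 ± 0.12 in controls (difference -0.80 ± 0.18, adjusted p = 0.0266). Crocc, a component of the ciliary rootlet, passed in both genotypes and was also picked after its values were seen. It was higher at night in cKOt kidneys (0.45 ± 0.10) and lower in controls (-0.28 ± 0.10). This makes it 1 of the 2 transcripts that passed in opposite directions and differed between genotypes.

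**Figure D4:**
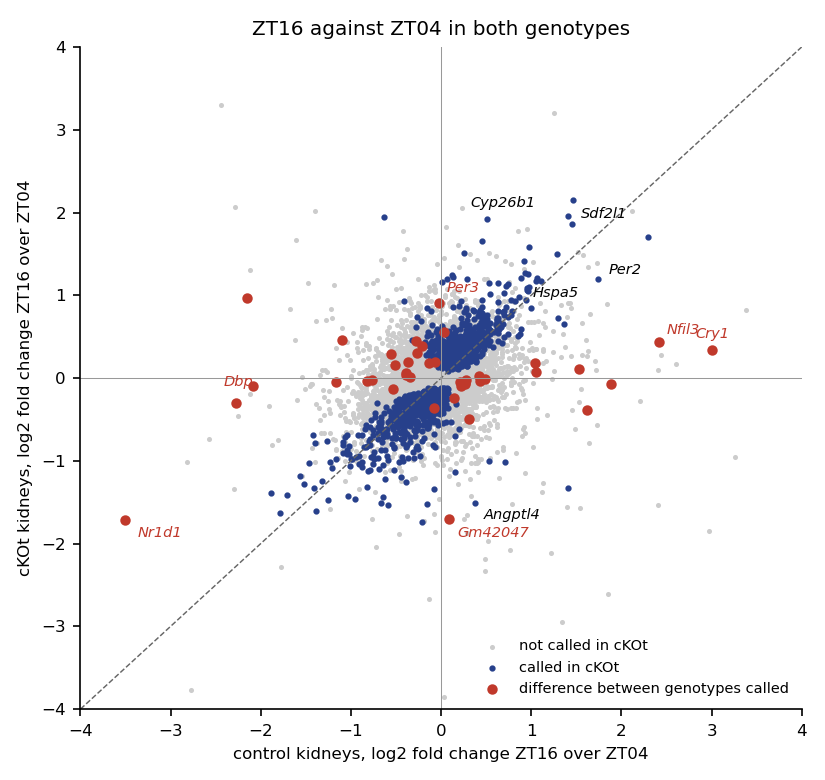
Log2 fold change between ZT16 and ZT04 in control (horizontal) and cKOt (vertical) kidneys for each transcript, with those called in cKOt in blue, those whose difference between genotypes was called in red (43), and the dashed line at equal change. Heat shock and ER transcripts such as Hspa5 (0.88 and 1.21) lie near the line, and Cry1 (3.01 and 0.34) lies near the horizontal axis, while 1 transcript that was not called falls outside the axes.

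The direction of most of the differences was also found in other cKOt mice. Between ZT20 and ZT08, sampled from 10 mice that did not enter the comparison, 89.9% of the 859 transcripts that were higher at ZT16 had a positive log2 fold change, and 93.0% of the 743 lower ones a negative one, whereas 48.5% of all transcripts were positive. Hspa5, Sdf2l1, and Creld2 had log2 fold changes of 0.97, 1.64, and 0.94 between these times, and Cpt1a and Slc6a19 of -0.68 and -0.85. Some named transcripts did not keep the direction of their call. Hspa8 was at -0.07, Per3 at -0.66, Gadd45g at -0.89, Rbm3 at -0.20, and Ndufa6 at -0.07, although they were higher at ZT16. Acmsd was at 0.65 and Nsdhl at 0.05, although they were lower at ZT16.

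Since the transcripts were chosen by the difference between ZT16 and ZT04, an extreme at either time is favored, and the times of the extremes are only a description. Over the 6 time points, 534 of the 859 higher transcripts (62.2%) reached their highest cKOt mean at ZT16 and 183 at ZT20. Of the 743 lower ones, 478 had their lowest mean at ZT16, and 296 and 279 had their highest at ZT04 and ZT08.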

How the data were processed

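The authors prepared stranded poly(A) libraries, aligned single reads, and deposited counts of reads per Ensembl gene, which are whole numbers without normalization. The submitters' processing notes name STAR (version 2.5.3a), HTSeq (0.9.1), cutadapt (1.8), and GRCm38; the annotation release is not given in the sources used here. The authors kept 5 of a larger number of mice per group by RNA integrity and distance in ordination plots. Their sample table marks cKOt ZT16 replicate 4 for removal, although it was deposited, and comments on cKOt ZT04 replicate 5 as an outlier. Both were kept here. Symbols and positions came from GENCODE M21. The 10 libraries held 17950038 to 19373485 counts on genes, and 8.35% to 10.6% of assigned, ambiguous, and unassigned reads lay outside genes.

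Transcripts with at least 1 CPM in at least 1 of 60 samples were retained, as in the study. One model with 12 groups, TMM library sizes, and 2 RUVs factors (written anew from log2 CPM with a prior count of 2) was fitted with edgeR 4.0.16 in R 4.3.3, with quasi-likelihood F tests and Benjamini-Hochberg adjustment over all 15546 transcripts at 0.05. CPM are TMM-normalized and not corrected by RUVs, whereas fold changes are. Fold changes within batches (as named in the sample table) use log2(CPM + 0.5). Batches shared by both times hold 7 of the 10 mice. Labels give 5 mice per group, and no pair of replicates was identical. The p-values rest on the spread between mice within all 12 groups after the RUVs factors, not on that of these 10 mice alone.

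Named genes were the 12 largest increases and 12 largest decreases (protein coding, at least 2 CPM, ranges not overlapping), all clock genes, up to 4 called members of each other list, and the 6 largest differences between genotypes (at least 2 CPM). Some of these genes are counted but not reported here. The comparison, lists, and rule were chosen with earlier results of these data known. Alternatives were DESeq2 1.42.0 size factors and Wald test, limma-trend (limma 3.58.1), other filters, no RUVs factors, batch, the replicate number as a block, smaller sets of samples, and leaving out mice. The procedure was tested on simulated counts.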

Additional observations from a re-analysis of the deposited data

Results flagged for a closer look

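Sets of 5 mice were examined for a mouse far from the other 4, which chance gives in about 1 in 20 independent sets. The sets examined share the same mice and are not independent, so this rate is no reference for them. Of 198 sets, 8 (4.04%) held such a mouse. Of these, 5 came from replicate 5 of ZT04: Aplnr at 11.5 CPM (7.62 to 8.38 in the other day mice), Slc2a2 at 283 CPM (206 to 223), Slc5a8 at 688 CPM (537 to 579), Cyp4b1 at 1349.7 CPM (2054 to 2320.0), and the share of counts in the 10 most abundant transcripts at 15.7% (13.2% to 13.9%). Slc16a14 was at 70.8 CPM in replicate 2 of ZT04 (44.1 to 51.0) and Kcnj10 at 73.9 CPM in replicate 4 (85.7 to 88.9). Pdk4 was at 27.3 CPM in replicate 4 of ZT16, with 15.4 to 17.7 CPM in the other night mice.

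The log2 difference between the genotypes' changes passed the test for 8 of the transcripts named by the rule and reported here. It was -2.67 for Cry1, -0.50 for Cry2, -1.98 for Nfil3, and -2.01 for Lingo4, whose cKOt change was smaller than or opposite to an increase in controls. It was 1.79 for Nr1d1, 1.98 for Dbp, and 1.99 for 9030625G05Rik, a long noncoding RNA whose control means fell from 0.968 to 0.222 CPM while cKOt kidneys stayed between 2.75 and 5.21 CPM. For Per3 it was 0.93.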

How the results depend on the processing

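Leaving out 1 mouse at a time gave 623 to 835 higher and 540 to 740 lower transcripts in cKOt kidneys and 27 to 47 differences between genotypes, the lowest without cKOt ZT16 replicate 3. Without RUVs factors, 1209 were lower in cKOt kidneys, and 518 were higher and 486 lower in controls. With batch in their place, these were 1366, 620, and 549, and 77 transcripts differed between genotypes, against 86 by the DESeq2 Wald test. With the 10 samples alone and no RUVs factors, 553 were higher. The cause of these shifts was not tested. Without both ZT04 replicate 5 and ZT16 replicate 2, chosen after seeing the data, 1250 transcripts passed, 1097 of them in common with the 1602.

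Of 75 called named genes, 47 kept their call under all 21 alternatives and 28 lost it under at least 1. Qprt was the only called one to change sign (0.0066 with batch). Among genes that were not called, Cry2 turned to 0.0099 without the filter, 0.11 without RUVs factors, 0.14 with batch, 0.11 with the 10 samples alone, and lay between -0.043 and 0.024 when 1 mouse was left out, positive without ZT04 replicate 2 (0.023) or 4 (0.011) or ZT16 replicate 1 or 3 (0.014). Clock turned to -0.056, -0.094, and -0.057 and Npas2 to 0.024, 0.16, and 0.024 without RUVs factors, with batch, and with the 10 samples alone, and Npas2 lay between -0.099 and 0.0088 when 1 mouse was left out (0.0088 without ZT04 replicate 2). Csnk1d lay between -0.011 (without ZT16 replicate 2) and 0.035 in this setting and Tef between -0.066 and 0.0093. Csnk1d was -0.026 without this and ZT04 replicate 5, where Tef was 0.0093.

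The replicate numbers did not pair the samples. Deviations of same-numbered mice correlated at 0.0067 on average (5 pairs, -0.060 to 0.116) and those of other pairs at -0.00096. With the replicate number as a block, 1515 transcripts passed, 1469 of them in common. Depth limited low transcripts most, such as Derl3 with 4 to 71 reads.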

Other observations

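Night mice of replicates 1 and 2 shared more than their place on the second principal component. Their values of Txnip, a glucose-responsive transcript, were 217 and 198 CPM, against 292 to 361 CPM in the other night mice and 342 to 385 CPM by day. Cyp24a1 was at 9.13 and 17.4 CPM in them and at 34.0 to 75.9 CPM in the others. They also had the highest night values of Per2 (101 and 97.1 CPM), Nfil3 (32.4 and 29.2 CPM), and Rbm3 (82.6 and 69.9 CPM). The second RUVs factor was 1.94 and 2.36 in these mice and between -1.30 and -0.78 in the other 3. These transcripts were picked after their values were seen, and no test was made.

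The share of transcripts called differed with their level. Among the 5182 transcripts of lowest mean expression (up to 6.44 CPM), 4.81% of transcripts were called, with a median difference of 0.72 on the log2 scale, whereas among the 5182 of highest mean expression (from 35.0 CPM) 14.5% were called, with a median of 0.24.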
